A study of Camponotus floridanus with 64 samples.

Results

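The microRNA loci described here are the 119 identifiers whose names begin with Cflo_miRNA, chosen by name alone from the 18130 identifiers in each of 2 tables of brain poly(A) RNA libraries from the carpenter ant Camponotus floridanus. Of these names, 24 carry the prefix Cflo_miRNAnovel and 95 carry Cflo_miRNA and a serial number. The scout table holds 21 central brains of adult minor workers labelled scouts, each library made from 15% of 1 brain with linear amplification (LinDA). Scouts were isolated at day 25 to 30 and fed freely on 20% sugar water with solvent or inhibitor for 45 days, per the labels, and not every labelled age fits that course. The solvent arm received DMSO (5 brains, day 78, colonies SB2, SB6 and SB7). The TSA arm received 50 µM trichostatin A, an inhibitor of histone deacetylases (10 brains, days 68 to 73, colonies SB1, SB2 and SB4). The TSA+C646 arm received 50 µM TSA with C646, an inhibitor of the acetyltransferases CBP and p300, at 50 µM (4 brains, days 57 to 63, colonies SB1 and SB6) or 100 µM (2 brains, day 66, colony SB4). Both inhibitors were dissolved in 0.5% DMSO. The day 1 table holds 5 untreated minors, the smaller workers, and 5 untreated majors, the larger workers, all callow (newly emerged) adults of colony SB2. The shared protocol names LinDA for all libraries, whereas the descriptions of single libraries name it for scouts and not for day 1. The numbered identifiers carry no gene names, so the labelled tissue was not checked against marker genes. Enzymes of the microRNA pathway and microRNA families were not analysed here for the same reason.

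A microRNA starts as a longer primary transcript, which is usually capped and polyadenylated. The nuclease Drosha cuts a hairpin from it, Dicer trims the hairpin, and the mature strand guides an Argonaute protein to messenger RNAs, which are then repressed. Mature microRNAs have no poly(A) tail, so selection for poly(A) RNA favours primary transcripts over the mature strand. In insects, microRNAs are known to act in neuronal development, ageing and behaviour.

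Most microRNA loci had no signal. An identifier is called detected where its value lay above the tied bottom values of a library, and its level is its deposited log2 value less a constant particular to that library, with undetected identifiers at 0. The base of the logarithm is not recorded, and base 2 was assumed. Within a table all libraries followed 1 shared distribution, so a level restates the rank of an identifier in its library. A locus listed as undetected may have had no transcript or no usable estimate, and in whole brains fewer cells of a type and less RNA per cell cannot be told apart. Of the 119 loci, 93 were detected in none of the 31 libraries. In scouts 11 loci were detected in at least 1 library, which is 9.24% of the loci against 85.0% of all identifiers. On day 1 there were 19, which is 15.97% against 76.3%. Among the 9 classes of identifier the microRNA share was the lowest in both tables, below that of transfer RNAs, which deliver amino acids to the ribosome, at 36.0% in scouts and 32.3% on day 1. The 24 loci named Cflo_miRNAnovel gave 8 detected loci on day 1 and 2 in scouts, and the other 95 gave 11 and 9.

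**Figure D1:**
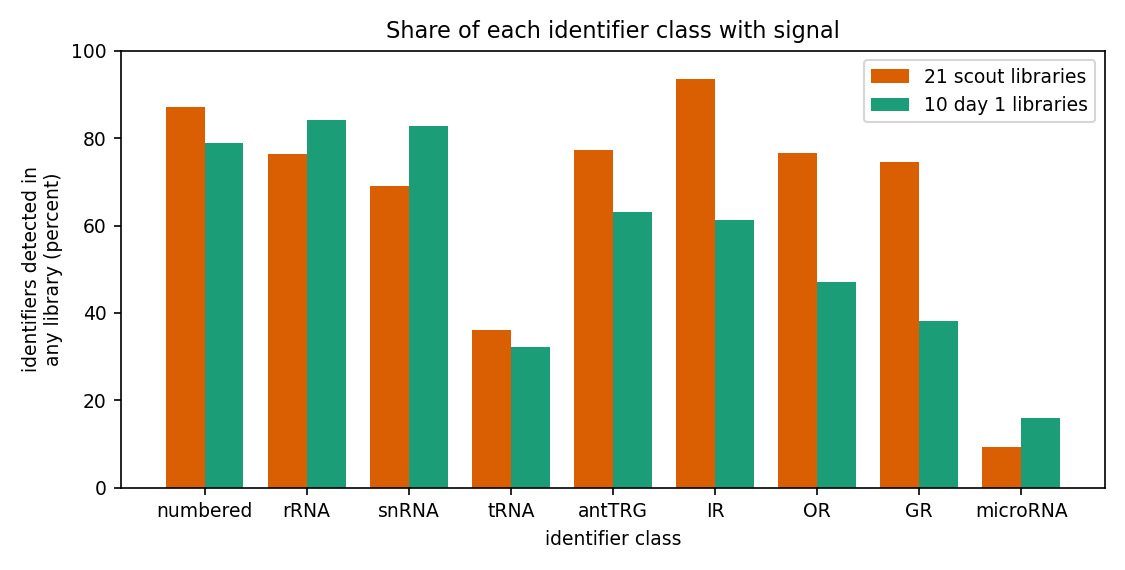
Share of the identifiers of each class, in percent, detected in at least 1 of the 21 scout libraries (orange) or of the 10 day 1 libraries (green). The microRNA bars are the lowest in both tables, at 9.24% and 15.97%.

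Where a microRNA locus was detected, its level was high on the deposited scale. Whether the values were scaled by length, which sets the level of short features, is not given in the sources used here. The 19 detections in scouts had a median level of 6.47 on the log2 scale (lowest 2.56, highest 8.51), beside a median of 1.07 over all detections of all identifiers. The 41 detections on day 1 had a median level of 6.28 (lowest 1.10, highest 11.22), beside 0.71. A level over 5 was reached in 84.2% of the microRNA detections in scouts and in 73.2% on day 1, and in 3.58% and 4.03% of all detections. Transfer RNAs, another class with short products, had median levels of 7.82 in scouts and 6.92 on day 1.

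Detection was also sporadic. Of the loci detected in scouts 6 of 11 appeared in a single library (54.5%), against 8.33% of all detected identifiers, and on day 1 it was 12 of 19 (63.2%) against 10.7%. The 6 single-library loci of scouts had a median level of 6.57, where numbered identifiers found in a single library had 0.94. The 12 of day 1 had 5.34, where numbered identifiers had 0.33. Other classes shared these traits in part. On day 1 42.6% of detected transfer RNAs, 51.6% of identifiers named OR and 66.7% of those named GR were in a single library, and the single-library transfer RNAs had a median level of 6.38. In scouts 22.4% of detected transfer RNAs were in a single library, at a median of 4.53.

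On day 1, 3 loci were detected in at least 5 of the 10 brains, a share of 2.52% of the loci against 57.7% of all identifiers. These were Cflo_miRNAnovel6, Cflo_miRNAnovel9 and Cflo_miRNA90, and the next in order was Cflo_miRNA77 with 4 brains. Cflo_miRNAnovel6 stood at 11.22, 9.88, 10.54, 7.41 and 9.83 in minors 1 to 5. It stood at 11.22 and 8.99 in majors 4 and 5 and was undetected in majors 1 to 3. It was thus present in every minor and in the majors with the most identifiers detected, and the values of majors 4 and 5 lay within or at the edge of the minors' range. Within a library it ranked between 17 and 96 from the top of 18130 identifiers.

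Cflo_miRNAnovel9 was likewise detected in all 5 minors, at 5.27, 7.91, 4.97, 9.46 and 6.28. Among majors it was detected in major 3 at 9.02 and in major 5 at 5.40. It varied more among minors than Cflo_miRNAnovel6 did, over 4.49 log2 units against 3.82, and its order across brains was different: minor 4 had the highest Cflo_miRNAnovel9 and the lowest Cflo_miRNAnovel6.

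Cflo_miRNA90 stood at 5.999, 7.98, 7.88 and 7.65 in minors 1 to 4 and was undetected in minor 5. The only major with Cflo_miRNA90 was major 5, at 6.33. Cflo_miRNA77 was split evenly between the castes, at 5.03 and 4.07 in minors 3 and 4 and at 3.07 and 5.88 in majors 4 and 5. Every brain with Cflo_miRNA90 or Cflo_miRNA77 also had Cflo_miRNAnovel6. As Cflo_miRNAnovel6 was undetected in majors 1 to 3 alone, any locus absent from those 3 brains meets this.

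**Figure D2:**
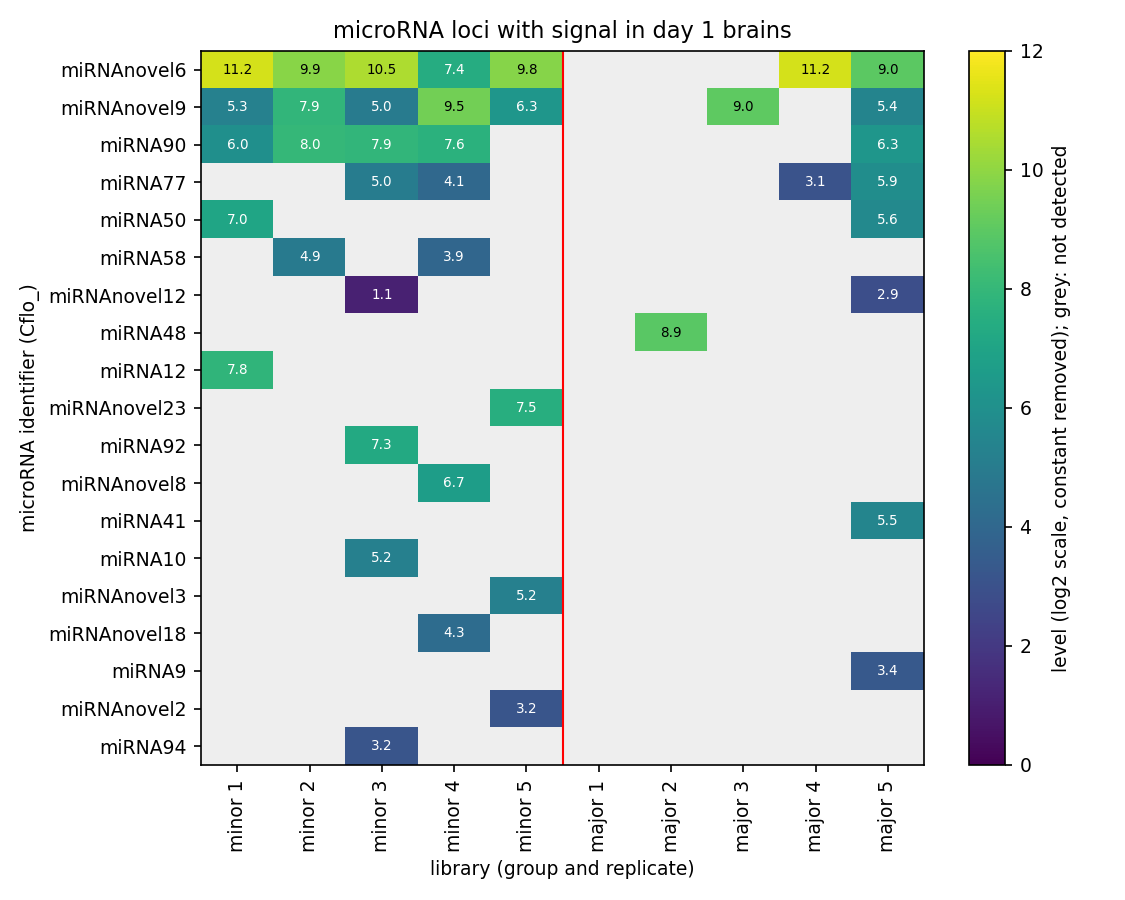
Levels, on the log2 scale with the library constant removed, of the 19 microRNA loci detected in any day 1 brain, one column per library, minors left and majors right of the red line; grey cells are undetected. Signal gathers in Cflo_miRNAnovel6 and Cflo_miRNAnovel9, with 7 brains each, and majors 1 to 3 hold 0, 1 and 1 locus.

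Between day 1 castes, no microRNA locus passed the test. Limma on the values as deposited, with Benjamini-Hochberg adjustment over all 3694 identifiers tested, called 0 of the 5 microRNA loci whose mean passed the filter, where it called 0.0541% of all identifiers (2). The other 114 loci were too low to be tested. A locus passes the filter through the brains where it is high, so the 5 are not a sample of all loci. At an unadjusted p under 0.05, 2 of the 5 were lower in majors, beside 12.2% of all identifiers tested (451 of 3694). The median difference of the 5 was -3.88, beside -0.22 over all identifiers tested.

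Majors minus minors, Cflo_miRNA90 differed by -4.41 on the log2 scale (SE 1.74; limma, adjusted p = 0.270). For Cflo_miRNAnovel6 the difference was -5.72 (SE 2.32; limma, adjusted p = 0.276), and for Cflo_miRNAnovel9 it was -3.88 (SE 1.83; limma, adjusted p = 0.324). Cflo_miRNA50 and Cflo_miRNA77 differed by -0.27 (SE 1.61) and 0.07 (SE 1.44), with limma adjusted p of 0.955 and 0.986. These differences mix whether a locus was detected with its level. With libraries weighted by their quality (array weights), the differences were -1.35 for Cflo_miRNAnovel6 and -1.999 for Cflo_miRNA90 (limma, adjusted p = 0.782 and 0.788). That of Cflo_miRNAnovel9 changed little, to -3.66 (limma, adjusted p = 0.431).

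Majors 1 to 3 stood apart from the other day 1 libraries, with 5459, 6298 and 6528 identifiers detected against 10216 to 11768 in the rest. Without them, Cflo_miRNAnovel6 was no longer lower in majors, at a difference of 0.35 (limma, adjusted p = 0.931). Cflo_miRNA90 then differed by -2.70 and Cflo_miRNAnovel9 by -4.06 (limma, adjusted p = 0.734 and 0.520). The direction for Cflo_miRNAnovel6 therefore rests on those 3 libraries. The part of their low yield in the undetected values was not tested.

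**Figure D3:**
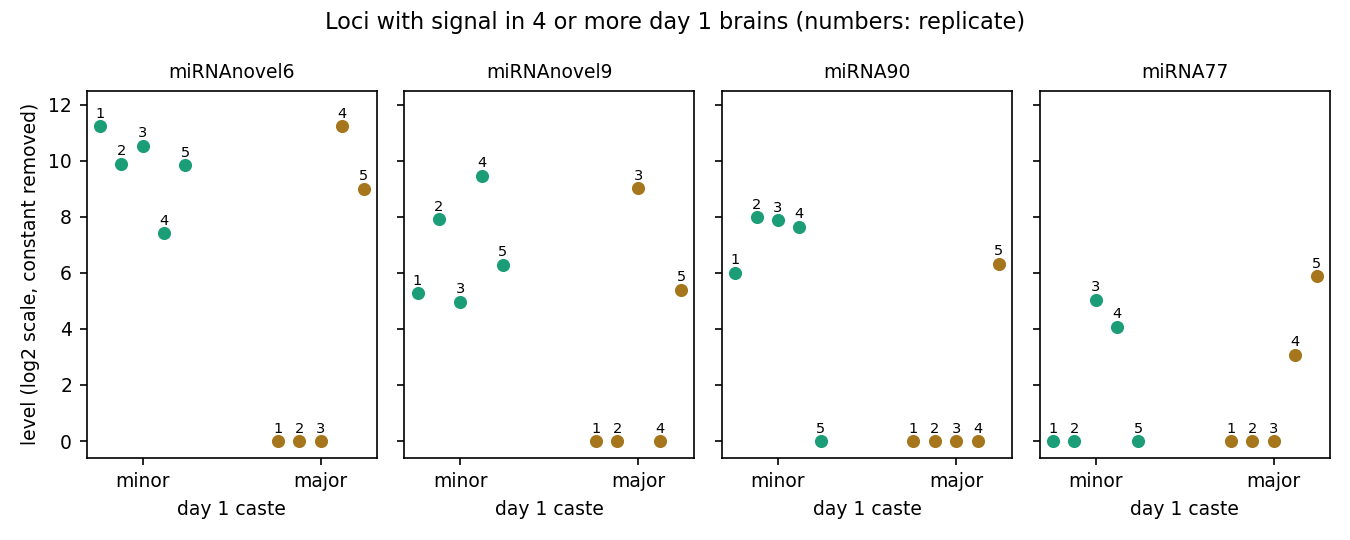
Level on the log2 scale, with the library constant removed and undetected loci at 0, of the 4 loci detected in 4 or more day 1 brains; each point is 1 brain and is marked with its replicate number. Majors 1 to 3 are at 0 for all but Cflo_miRNAnovel9, where major 3 stands at 9.02.

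Counted per brain, minors had 4 to 8 detected microRNA loci (5, 4, 8, 7 and 5 in minors 1 to 5), and majors had 0, 1, 1, 2 and 8. Major 5 equalled the highest minor, so the castes overlapped. Over each caste, 16 loci were detected in any minor (13.4% of the loci, against 70.8% of all identifiers) and 9 in any major (7.56%, against 70.7%). Both castes shared 6 loci (31.6% of the 19, against 85.3% of all detected identifiers and 48.6% of transfer RNAs). In minors alone 10 were detected (52.6%, against 7.46% of all and 24.3% of transfer RNAs), and in majors alone 3 (15.8%, against 7.22% and 27.03%). A locus detected in a single brain can fall in a single caste only, and 12 of the 19 loci were of this kind. Without major 5, the 4 remaining majors had 4 loci. Beyond the leading loci, Cflo_miRNA50 was detected in minor 1 at 7.04 and in major 5 at 5.65, Cflo_miRNA58 in minors 2 and 4 at 4.88 and 3.95, and Cflo_miRNAnovel12 in minor 3 at 1.10 and in major 5 at 2.87. The remaining 12 loci each appeared in a single brain, at levels from 3.16 for Cflo_miRNA94 to 8.94 for Cflo_miRNA48.

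In scouts, signal was thinner, and no locus was detected in more than 3 of 21 brains. No microRNA locus was detected in 10 brains, and 11 had between 1 and 4. DMSO brains 17 to 21 had 0, 0, 1, 1 and 1 detected loci. TSA brains 1 to 10 had 0, 2, 0, 0, 0, 2, 0, 2, 1 and 4. TSA+C646 brains 11 to 16 had 0, 2, 2, 0, 0 and 1. The arms thus overlapped, and in each arm at least 2 brains had none. Over each arm 3 loci were detected in any DMSO brain, 9 in any TSA brain and 4 in any TSA+C646 brain, from 5, 10 and 6 brains. These are 2.52%, 7.56% and 3.36% of the loci, against 66.5%, 82.0% and 72.9% of all identifiers. Of the 11 loci, 7 appeared in a single arm (63.6%, against 12.8% of all detected identifiers and 29.7% of transfer RNAs), 3 in a pair of arms and 1 in all 3. The TSA arm, with the most brains, alone held 5 of these 7 loci, and it also held most identifiers found in a single arm (1553 of 1976). A locus detected in a single brain can fall in a single arm only, and 6 of the 11 loci were of this kind.

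**Figure D4:**
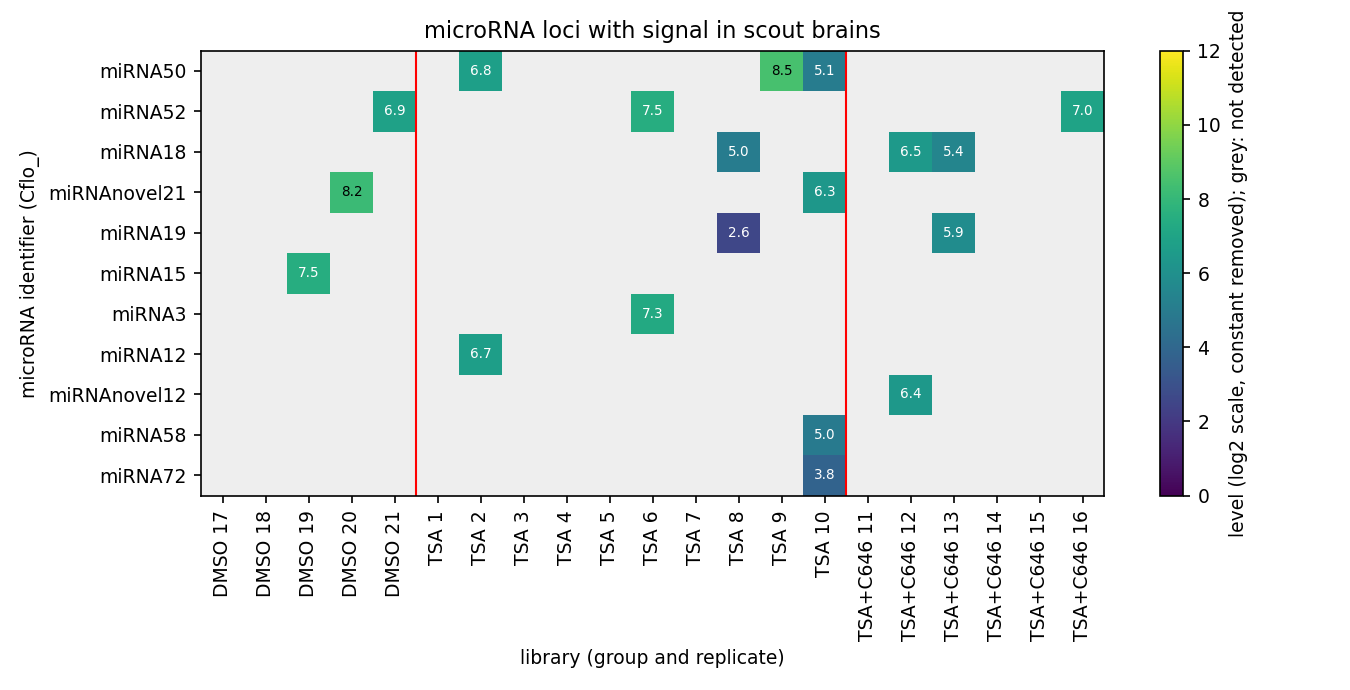
Levels, on the log2 scale with the library constant removed, of the 11 microRNA loci detected in any scout brain, one column per library, with red lines between the DMSO, TSA and TSA+C646 arms; grey cells are undetected. No locus fills more than 3 columns.

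Cflo_miRNA50 was detected in TSA brains alone. It stood at 6.79 in TSA brain 2, 8.51 in TSA brain 9 and 5.06 in TSA brain 10, and was undetected in the other 7 TSA brains, in all 5 DMSO brains and in all 6 TSA+C646 brains. Against DMSO the difference was 2.19 (SE 1.28; limma, adjusted p = 0.995), and for TSA+C646 against TSA it was -2.04 (SE 1.21; limma, adjusted p = 0.991). This locus passed the filter on mean value through the 3 TSA brains alone, so a difference between TSA and the other arms was built into its being tested. It was undetected in every DMSO and TSA+C646 brain, so their difference of 0.15 on deposited values (limma, adjusted p = 0.999) compares no signal, and it was 0 once the library constants were removed. These comparisons share their groups. The 3 TSA brains with Cflo_miRNA50 detected 10185, 11004 and 12328 identifiers, while DMSO brains detected 7825 to 8931. The part of this yield in the difference was not tested. Without scout libraries 9, 10, 15 and 16, which had the largest constants in absolute size, the difference against DMSO was 0.88 and that of TSA+C646 against TSA was -0.88. Within colony SB2, the only colony that DMSO and TSA shared, the difference was 3.21 (limma, adjusted p = 0.906).

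Cflo_miRNA52 was found in 1 brain of each arm, at 6.87 in DMSO brain 21, 7.48 in TSA brain 6 and 6.98 in TSA+C646 brain 16. These brains came from colonies SB7, SB4 and SB1. Its differences were -0.47 for TSA against DMSO (SE 1.39), -0.06 for TSA+C646 against DMSO (SE 1.54) and 0.41 for TSA+C646 against TSA (SE 1.31). The median difference over all 4899 identifiers tested was 0.14, 0.05 and -0.10 in these comparisons. None of the 3 differences passed (limma, adjusted p = 0.995, 0.999 and 0.993), and the sign of each changed when a single library was left out.

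Limma with Benjamini-Hochberg adjustment called 0 of the 2 microRNA loci tested in each of the 3 scout comparisons, where the share called was 0% of 4899 identifiers each time. At an unadjusted p under 0.05 the microRNA count was also 0, beside 3.27% of all identifiers for TSA against DMSO, 3.06% for TSA+C646 against DMSO and 3.55% for TSA+C646 against TSA. The other 117 loci had a mean under the filter. Age did not overlap between the arms, so arm and age cannot be told apart, and only SB2 and SB6 held DMSO brains beside treated ones.

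Among loci too low to be tested, Cflo_miRNA18 was detected in TSA brain 8 at 5.03 and in TSA+C646 brains 12 and 13 at 6.47 and 5.44. Cflo_miRNA19 was detected with it in TSA brain 8 at 2.56 and in TSA+C646 brain 13 at 5.85, both from colony SB1. The other SB1 brains, TSA 4, 7 and 9 and TSA+C646 11 and 16, had neither locus, and brain 12 was from SB6. Cflo_miRNAnovel21 stood at 8.19 in DMSO brain 20 and at 6.34 in TSA brain 10. The remaining 6 loci each appeared in a single brain: Cflo_miRNA15 with DMSO, Cflo_miRNA3, Cflo_miRNA12, Cflo_miRNA58 and Cflo_miRNA72 with TSA, and Cflo_miRNAnovel12 with TSA+C646. Of the TSA+C646 brains, both given 100 µM had no locus, and those given 50 µM had 0, 2, 2 and 1. The 100 µM brains were both from SB4 and include brain 15, which detected 2791 identifiers in all, so dose and colony cannot be told apart.

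**Figure D5:**
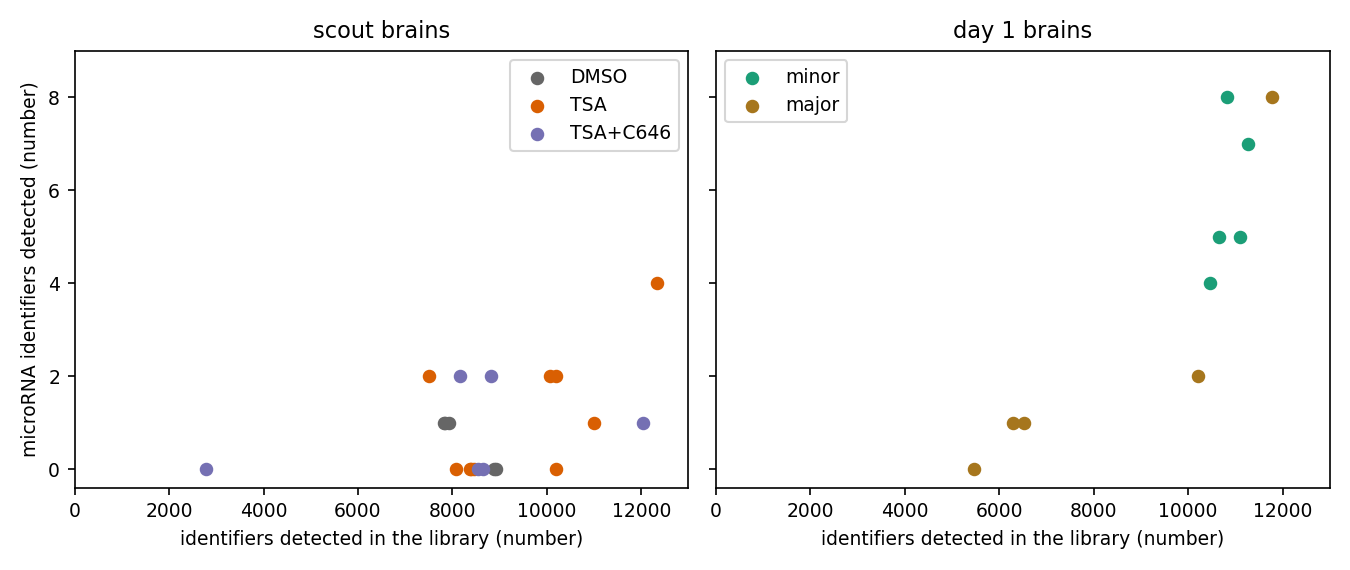
Number of microRNA loci detected in a library against the number of all identifiers detected in it, for scout brains (left) and day 1 brains (right), coloured by group. Among day 1 libraries, majors 1 to 3, with 5459 to 6528 identifiers, hold at most 1 locus; scout libraries with 12032 and 12328 identifiers hold 1 and 4.

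On day 1 the libraries with the lowest yield had the fewest loci, and scouts showed no plain order. An association of loci with yield was not tested. On day 1, majors 1 to 3, with 5459 to 6528 identifiers, had at most 1 locus, and the 7 libraries with 10216 identifiers or more had 2 to 8. In scouts TSA brain 10, with 12328 identifiers, had 4 loci. TSA+C646 brain 16, with 12032, had 1. TSA brain 3, with 10204, had 0. At lower yields, TSA brain 6, with 7511, had 2, and DMSO brains 17 and 18, with 8882 and 8931, had 0. TSA+C646 brain 15, with the lowest yield of 2791, also had 0.

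The 2 tables shared 4 loci, Cflo_miRNA12, Cflo_miRNA50, Cflo_miRNA58 and Cflo_miRNAnovel12, which is 36.4% of the 11 scout loci and 21.1% of the 19 day 1 loci. Over all identifiers the shared part was 85.5% of those detected in scouts and 95.3% of those detected on day 1, and over transfer RNAs it was 60.0% and 66.9%. The 4 loci detected in at least 4 day 1 brains (Cflo_miRNAnovel6, Cflo_miRNAnovel9, Cflo_miRNA90 and Cflo_miRNA77) were detected in 0 of 21 scout brains. Of all 10979 identifiers detected in at least 4 day 1 brains, 121 (1.10%) were detected in no scout brain, and of 44 such transfer RNAs 8 (18.2%). The tables were normalized separately and differ in age, in treatment, in colonies and, by the library descriptions, in amplification. These cannot be told apart, and no test was made across them.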

How the data were processed

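Poly(A) RNA-seq tables of 21 scout and 10 day 1 brains of Camponotus floridanus were used. The submitters' processing notes name bcl2fastq 2.0, Bowtie2 and Cufflinks 2.2.1. Settings, build and annotation were not given in the sources used here. The deposited values are normalized expression on a log scale, with no base recorded and log2 assumed. Back-transformed on base 2, libraries sum to 2.78e+05 to 6.77e+05 in scouts and 1.92e+06 to 1.98e+06 on day 1, which does not settle the base. They are not counts, so depth is unknown. Within a table every library followed 1 shared distribution plus a constant (-0.330 to 0.907 in scouts, -0.0150 to 0.0288 on day 1), to within 9.00e-11. Lowest values that had been tied rise with line number in each library, and identifiers above that run were called detected; with a negative constant it is a lower bound. Whether Cufflinks' scaling by length was kept in the values is not given in the sources used here, and it sets the level of short features.

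Differences were tested with limma 3.58.1 in R 4.3.3 (variance trend, Benjamini-Hochberg adjustment, threshold 0.05) on identifiers whose deposited values averaged 1 or more, fitted over the whole table. The plan assumed linear values; the deposited log2 values were tested directly. The scripts were tested on simulated data. For limma these were normally distributed, unlike loci undetected in most brains, so they do not show how the test treats such loci. Descriptions used Python 3.11.15, numpy 2.4.6, pandas 2.3.3 and matplotlib 3.10.9. The rule for named loci took the 10 highest in mean level among those detected in 50% or more of a table's libraries, all called loci and the 3 tested loci with the smallest p in each comparison; the other loci with signal were named after their values were seen. The members and lists were chosen with earlier results of these data known. P-values measure the spread between brains as the labels separate them. The table of subsamples of 1 minor brain lists 0 microRNA identifiers, so no technical error of these loci was measured. Of 119 identifiers, 0 matched the RefSeq gene table (assembly Cflo_v7.5).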

Additional observations from a re-analysis of the deposited data

Results flagged for a closer look

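A sample far from the rest of its group was found for 34 of 46 group values checked, by the gap to the nearest sample divided by the range. Chance flags about 1 in 20 groups of continuous values, and a locus detected in a single brain of a group always meets this criterion.

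In number of detected loci, TSA brain 10 stood apart with 4 and major 5 with 8. In DMSO brains the levels set apart were 7.48 for Cflo_miRNA15 in brain 19, 8.19 for Cflo_miRNAnovel21 in brain 20 and 6.87 for Cflo_miRNA52 in brain 21. In TSA brains they were 7.28 for Cflo_miRNA3 and 7.48 for Cflo_miRNA52 in brain 6, 6.74 for Cflo_miRNA12 in brain 2, and 5.03 for Cflo_miRNA18 and 2.56 for Cflo_miRNA19 in brain 8. In TSA brain 10 they were 4.97 for Cflo_miRNA58, 3.82 for Cflo_miRNA72 and 6.34 for Cflo_miRNAnovel21. In TSA+C646 brains they were 5.85 for Cflo_miRNA19 in brain 13, 6.98 for Cflo_miRNA52 in brain 16 and 6.39 for Cflo_miRNAnovel12 in brain 12.

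In minors, brain 1 stood apart with 7.85 for Cflo_miRNA12 and 7.04 for Cflo_miRNA50. Minor 3 stood apart with 5.23 for Cflo_miRNA10, 1.10 for Cflo_miRNAnovel12, 7.28 for Cflo_miRNA92 and 3.16 for Cflo_miRNA94. Minor 4 stood apart with 6.66 for Cflo_miRNAnovel8 and 4.26 for Cflo_miRNAnovel18. Minor 5 stood apart with 3.19 for Cflo_miRNAnovel2, 5.23 for Cflo_miRNAnovel3, 7.54 for Cflo_miRNAnovel23 and a level of 0 for Cflo_miRNA90, which the other 4 minors had. In majors, brain 2 stood apart with 8.94 for Cflo_miRNA48. Major 5 stood apart with 3.37 for Cflo_miRNA9, 5.45 for Cflo_miRNA41, 5.65 for Cflo_miRNA50, 2.87 for Cflo_miRNAnovel12 and 6.33 for Cflo_miRNA90.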

How the results depend on the processing

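The count of called microRNA loci was 0 under each of the 93 alternatives run over the 4 comparisons (limma). Over all identifiers, the same alternatives called 0 or 1 in the scout comparisons. On day 1 they called 0 to 4, apart from 37 of 3694 without major 5. The count of 0 thus does not set microRNA loci apart. A minimum mean of 2 left no microRNA locus in the scout fits. Of 205 alternative values for named differences, 183 did not reverse and none passed. For Cflo_miRNAnovel6 the limma adjusted p ran from 0.0904 to 0.931, for Cflo_miRNA90 from 0.1003 to 0.788, and for Cflo_miRNAnovel9 from 0.214 to 0.529. Same-numbered day 1 minors and majors did not pair (r of their deviations -0.117 to 0.166; 1 of 5 minors correlated best with its own number). With replicate number as a block the microRNA count was 0 and the count over all identifiers fell from 2 to 0.

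Signs reversed in 22 alternatives, and the cause was not tested. Without majors 1 to 3 Cflo_miRNAnovel6 moved to 0.35. Cflo_miRNA52 in TSA against DMSO moved to 0.16 with colony as a term and 0.25 within SB2, and leaving out 1 library gave -1.20 to 0.89 (the last without DMSO brain 21). In TSA+C646 against DMSO it moved to 0.017 with a pseudocount of 5, 0.32 with colony as a term and 0.60 at 50 µM C646 alone, and leaving out 1 library gave -1.37 to 1.31 (without TSA+C646 brain 16 and DMSO brain 21). In TSA+C646 against TSA it moved to -0.50 with array weights, -0.90 without libraries 15 and 16, -0.96 without 9, 10, 15 and 16, and -3.71 within SB4; leaving out 1 library gave -0.90 to 1.14, the first without TSA+C646 brain 16. Cflo_miRNA50 in TSA+C646 against DMSO moved to -0.0017 without libraries 15 and 16, with or without 9 and 10. Leaving out 1 library gave -0.0029 to 0.18. Not counted as reversals, its difference was 1.34 with colony as a term and 0 with quantile normalization or constants removed. The locus was undetected in both of these arms. In TSA+C646 against TSA within SB4, where it was undetected, it moved to 0.00049.

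Numbers of loci detected in a group were the same with a level of at least 1. Leaving out 1 library gave 2 to 3 in DMSO, 6 to 9 in TSA, 3 to 4 in TSA+C646, 12 to 16 in minors and 4 to 9 in majors, the 4 without major 5. Without libraries 9, 10, 15 and 16 scouts had 9 loci, and without majors 1 to 3 day 1 brains had 18. The alternatives within colonies and without libraries 9, 10, 15 and 16 were chosen after seeing the data. Depth is unknown, so an undetected locus sets no limit.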

Other observations

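In the day 1 fit without a filter, 44 of 119 microRNA loci had an unadjusted p under 0.05 (37.0%, against 18.4% of all 18130 identifiers; limma), and 0 passed adjustment. Of the 44, 42 were detected in none of the 10 libraries, with differences of 0.02 to 0.24, all higher in majors. The highest value of an undetected identifier was 0.537, 0.428 and 0.366 in majors 1 to 3 and at most 0.0219 in minors. With undetected identifiers returned to 0, 19 microRNA loci still varied. Of these 19, 2 had an unadjusted p under 0.05 (limma), Cflo_miRNAnovel6 and Cflo_miRNA90. The share over all identifiers was not computed for that fit, so the 2 are not read as a result.

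Lines next to the leading loci in the day 1 table were read for the brains where each locus was detected; what sets the order of the lines is not given in the sources used here. Beside Cflo_miRNAnovel6, the neighbours Cflo_09421 and Cflo_04947 reached at most 0.10 and 1.25, while the locus stood at 7.41 to 11.22. Beside Cflo_miRNA90, the microRNA loci Cflo_miRNA89 and Cflo_miRNA91 on adjoining lines were at 0 in each brain. Beyond them, Cflo_05337 and Cflo_05327 were detected in all 10 brains. They stood at 3.13 to 3.89 and 2.16 to 2.64 in the brains with Cflo_miRNA90. Cflo_miRNA77 lay next to Cflo_04886, detected in 10 of 10 brains and at 5.56 to 6.48 in the 4 brains with Cflo_miRNA77. On its other side, Cflo_04885 stood at 1.43 to 2.44 in these 4 brains. Cflo_miRNAnovel9 lay next to Cflo_miRNAnovel23, which was detected in 1 of its 7 brains, at 7.54. On its other side, Cflo_00511 stood at 0.74 to 1.95 in these 7 brains.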
